A study of Mus musculus with 753 samples.

Results

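The cells described here are the keratinocytes that the deposited annotation calls IFE-B, basal cells of the interfollicular epidermis (IFE), and that it also places in Seurat cluster 0. They number 131 of the 684 annotated cells (19.2%) and 131 of 373 IFE-B cells (35.1%). They are called basal cluster 0 cells below. Cluster 0 itself holds 196 cells, of which 39 were called upper hair follicle cells (uHF-I), 22 sebaceous gland cells (SG) and 4 outer bulge cells (OB). All cells came from the epidermis of mice of the strain Gata6EGFPCreERT2 Rosa26-fl/STOP/fl-tdTomato (written Gata6EFGPCreERT2 in the labels), carrying 1 copy each of Cre and tdTomato, whose clipped back skin received topical 4-hydroxytamoxifen. The treatment marks cells that express Gata6, and all their progeny, with tdTomato. Marked cells are lin+ and unmarked cells are lin-, and both were sorted from wounds on days 6, 9 and 11 after injury and from unwounded skin (day 0). Because the mark depends on Gata6 expression and on a low dose of the drug, a lin- cell may still descend from a Gata6-expressing cell.

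The basal layer is the only layer of the interfollicular epidermis that touches the basement membrane. Its cells make the keratins Krt5 and Krt14, anchor to the membrane through integrins and hemidesmosomes, divide, and give rise to suprabasal cells, which switch to Krt1 and Krt10. Gata6 marks the upper follicle and the sebaceous duct, from which cells can move into the epidermis when skin is wounded.

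A set is the cells of 1 lineage, 1 day and 1 mouse set, a mouse set being the mouse or mice of 1 replicate. Basal cluster 0 cells were 100 lin+ and 31 lin- cells, and 23 came from day 0, 25 from day 6, 40 from day 9 and 43 from day 11. In lin+ sets they made up 8 of 47 and 12 of 46 cells at day 0 (17.0% and 26.1%), 17 of 93 at day 6 (18.3%), 13 of 42 and 16 of 44 at day 9 (31.0% and 36.4%), and 13 of 32 and 21 of 47 at day 11 (40.6% and 44.7%). In lin- sets they made up 3 of 47 and 0 of 48 cells at day 0, 8 of 93 at day 6 (8.60%), 7 of 28 and 4 of 44 at day 9 (25.0% and 9.09%), and 6 of 26 and 3 of 47 at day 11 (23.1% and 6.38%). The 0 of 48 allows a share of up to 6.25% if set at 3 cells, and of up to 7.4% by the exact 95% interval. The share was thus larger in the lin+ than in the lin- set of each of the 7 mouse sets. Cells were sorted by tdTomato and by the integrin Itga6, so these are shares of sorted cells and not of the skin.

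**Figure D1:**
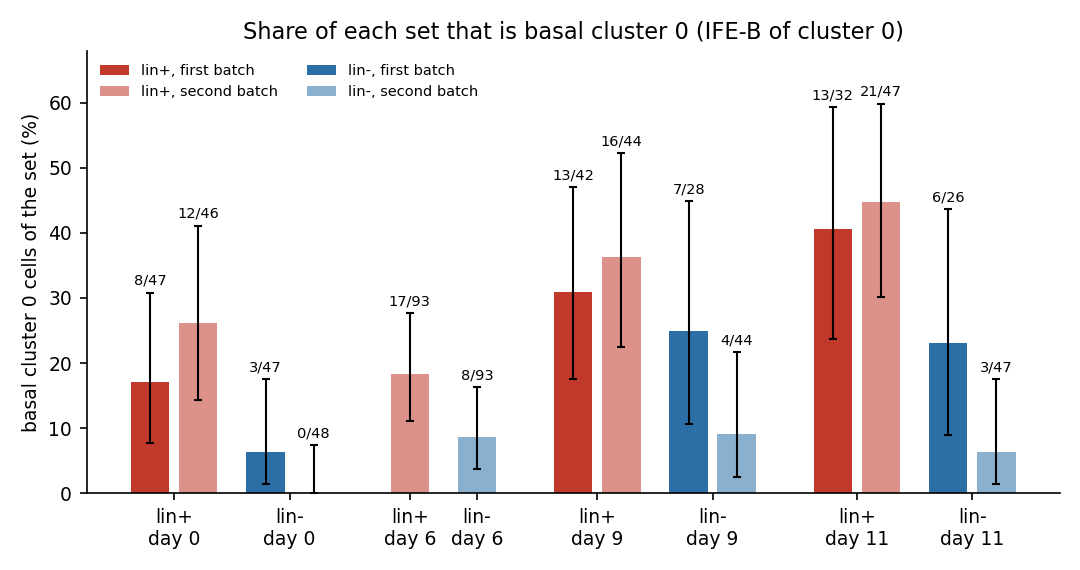
Share of basal cluster 0 cells among all annotated cells of a set, in percent on the y axis, by day after wounding on the x axis. Columns are the 14 sets, lin+ left of lin- at each day, and bars on them are exact binomial 95% intervals, which cover counting error only. The 2 lin+ sets of day 11 lie highest, at 40.6% and 44.7%, and the lin- set of day 0 replicate 2 lies at 0.

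Replicate 1 of days 0, 9 and 11 forms the first batch, given as counts per 1000000 reads (CPM), and replicate 2 with day 6 forms the second, given as length-corrected values rescaled to 1000000 per cell (TPM). Levels are therefore compared within a batch, and between genes only in the second. Sequencing was deep and the cells carried many genes: basal cluster 0 cells had a median of 5195070 reads and 2796 genes in the first batch, against 4525500 reads and 2102 genes in other cells, and 2972150 reads and 3305 genes in the second batch, against 2738500 reads and 2384 genes. At an equal depth of 1000000 reads the medians were 2833 genes in 121 basal cluster 0 cells and 2059 genes in 510 other cells. The other cells exclude 4 with under 200 genes. The 10 sets with at least 5 basal cluster 0 cells were used wherever sets are compared, and the lin+ day 0 replicate 1 set stood apart from them with a median of 1938.5 genes per cell. Smart-seq2 reads carry no molecular identifiers, so intervals on shares cover counting error only.

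The basal keratins were present throughout. Krt14 and Krt5 each had a read in 131 of 131 basal cluster 0 cells, against 482 and 430 of 549 other cells. Krt1, the first keratin of the suprabasal layer, had a read in 2 of 50 cells of the first batch (4.00%), against 35 of 170 (20.6%), but in 6 of 81 of the second (7.41%), against 25 of 379 (6.60%). The other 4 markers given for the cells were also widespread. Sostdc1, an antagonist of BMP and Wnt signals, had a read in 127 cells (96.9%), against 304 other cells (55.4%), and Ifitm3, an interferon-induced membrane protein, in 129 (98.5%), against 352 (64.1%). Apoe, a lipid carrier, had one in 131 cells, against 527, and Fgfbp1, which releases FGFs from the matrix, in 96 (73.3%), against 253 (46.1%). In GRCm38 the 6 genes lie at chr11:100203162-100207510 (Krt14), chr15:101707069-101712905 (Krt5), chr12:36314169-36318452 (Sostdc1), chr7:141009590-141010744 (Ifitm3), chr7:19696244-19701310 (Apoe) and chr5:43978858-43981828 (Fgfbp1).

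The marker levels varied between sets. These comparisons with other cells are descriptions, since the clusters were made on expression in the same cells. Sostdc1 averaged 3601 CPM in lin+ day 0, 2814 in lin+ day 9, 2802 in lin- day 9, 2044 in lin+ day 11 and 4145 in lin- day 11 cells of the first batch, against 1002, 1360, 941, 1289 and 1699 CPM in the other cells of those sets. In the second batch Sostdc1 averaged 3031 TPM in lin+ day 0, 2893 in lin+ day 6, 4122 in lin- day 6, 4394 in lin+ day 9 and 4415 in lin+ day 11 cells, against 2553, 1260, 514, 1596 and 2011 TPM in the other cells. Every set was thus higher in the basal cluster 0 cells, by a mean of 1.35 on the log2 scale (SD 0.74, n = 10 sets). Sostdc1 was the only one of the 6 markers with 1 direction in all 10 sets.

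Krt5 was higher in 9 of 10 sets (mean log2 difference 0.60, SD 0.53) and spanned 5942 to 8548 CPM in the basal cluster 0 cells of the first batch, against 3202 to 7092 CPM in other cells. Ifitm3 was also higher in 9 of 10 sets (1.31, SD 0.94), the exception being lin- day 9 replicate 1, with 1169 CPM against 1578 CPM. Apoe was higher in 7 of 10 sets (0.58, SD 0.70) and was the most abundant of the 6, with 30909 to 53782 TPM in the second batch, against 16670 to 33002 TPM in other cells. Krt14 was higher in 7 of 10 sets (0.38, SD 0.58), and its sets ranged more widely, at 9944 to 44975 CPM in the first batch, against 5306 to 31832 CPM. Fgfbp1 was higher in 8 of 10 sets, yet its mean log2 difference was -0.32 (SD 3.03), because the 8 cells of lin+ day 0 replicate 1 averaged 0.0265 CPM, against 463 CPM in the other cells of that set. Without that mouse set the mean was 0.62. Krt15, a further basal keratin, was higher in 5 of 10 sets and lower in 5. Over the alternative settings the mean difference lay between 0.054 and 4.11 for Krt5 and between 0.031 and 2.45 for Krt14.

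**Figure D2:**
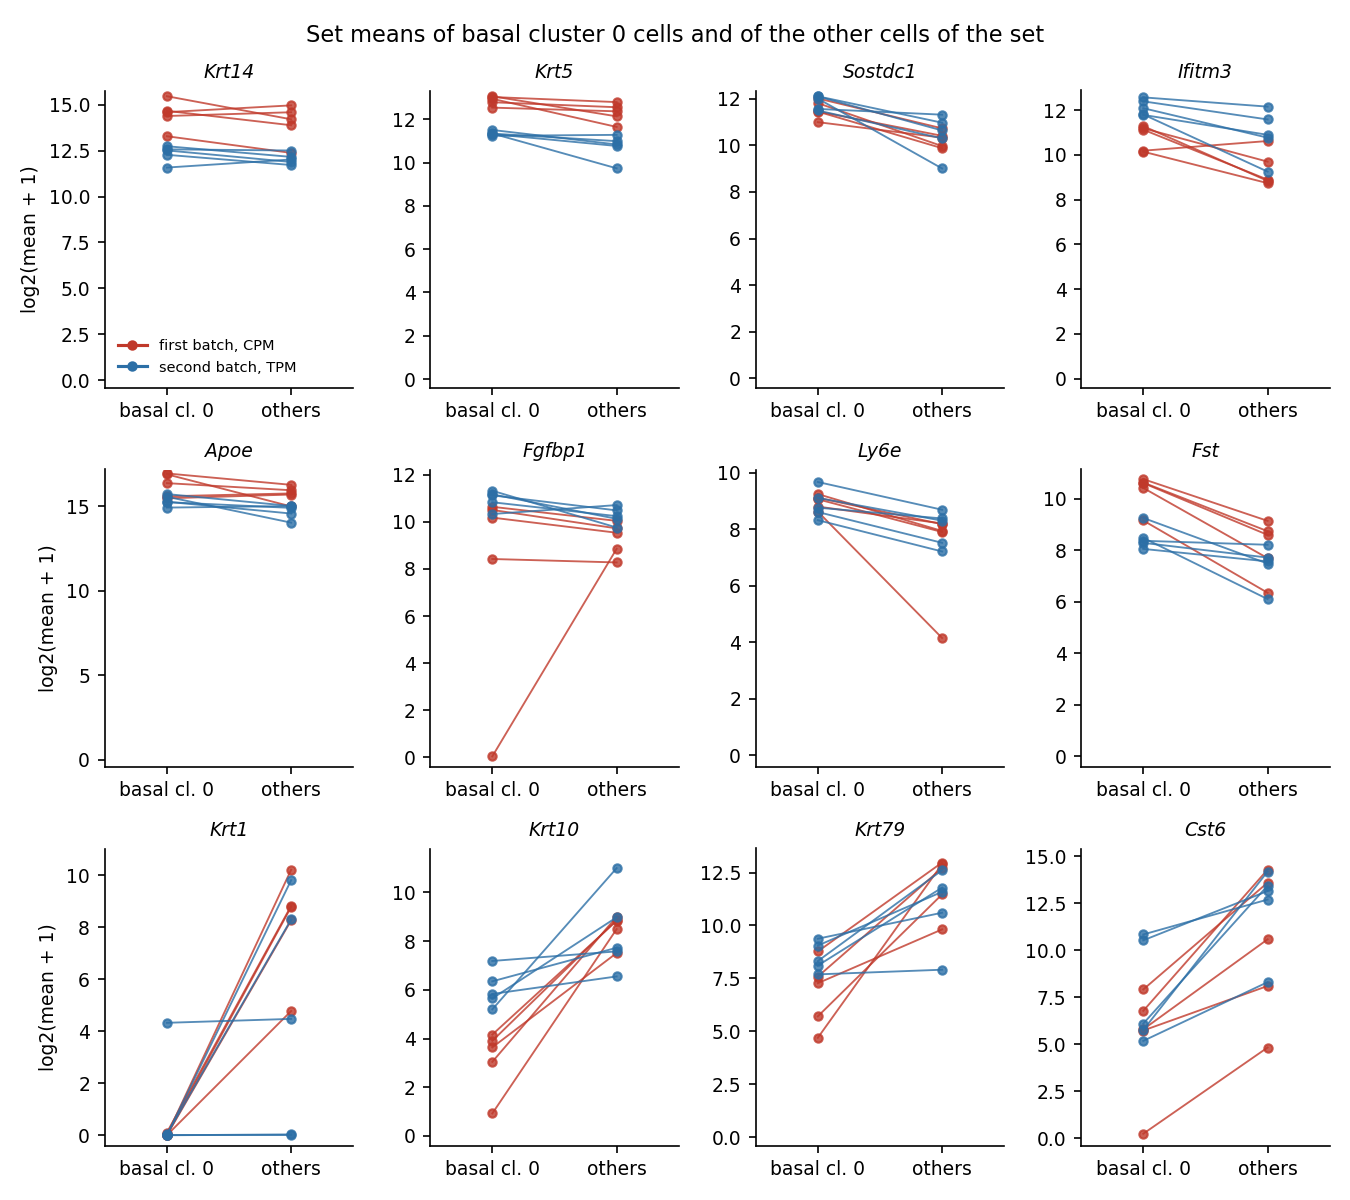
Mean level of the 6 marker genes, Ly6e, Fst, the suprabasal keratins Krt1 and Krt10 and the upper follicle genes Krt79 and Cst6, in basal cluster 0 cells (left) and in the other cells (right) of each of the 10 sets, on a log2(value + 1) y axis. Each line joins the 2 means of a set, in CPM for the first batch and TPM for the second. Sostdc1 is higher in the basal cluster 0 cells of all 10 sets, and Fgfbp1 lies at 0.0265 CPM in lin+ day 0 replicate 1.

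Within the cells the markers also spread. In the second batch Sostdc1 had a lower quartile of 1977 TPM, a median of 3220 and an upper quartile of 4975 TPM over the 81 basal cluster 0 cells, against a median of 20.2 TPM over 379 other cells. Krt5 had quartiles of 1701 and 3273 TPM around a median of 2360 TPM, against a median of 1520 TPM in other cells. Of the 379 other cells, 218 had a Sostdc1 read (57.5%) and 284 had a Krt5 read (74.9%). The mean of other cells thus rests on fewer cells for Sostdc1 than for Krt5.

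Genes of the layers above the basal layer were low on average, but cells with reads of several of them were not rarer than among other cells. At least 3 suprabasal genes were read in 67 of 131 basal cluster 0 cells (51.1%), against 279 of 549 other cells (50.8%) and 104 of 238 other IFE-B cells (43.7%). Of 10 genes of the suprabasal layer, all 10 had a negative mean log2 difference from other cells. In each of the 10 sets 6 of them were lower, beside 84 of all 8781 genes with a mean of at least 10. The list median was -3.73, against -0.14 over the 8781 genes. Krt10 averaged 0.895 to 16.9 CPM in the basal cluster 0 cells of the first batch, against 181 to 511 CPM in other cells, and 35.7 to 144 TPM in the second, against 92.6 to 2041 TPM. The cornified layer list had a median of -1.63, and 9 of its 10 genes were negative. The basal list of 17 keratins, integrins and hemidesmosome genes had a median of 0.50 with 13 genes positive, and Plec, the plakin that ties keratin to integrin, was higher in all 10 sets (0.72, SD 0.45). Lama3, a chain of laminin 332, went the other way, at -1.43.

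Genes of the neighbouring follicle compartments were lower in the averages, although reads of them were frequent. The list of 8 upper follicle and sebaceous duct genes had a median of -0.86. Krt79, the keratin of that compartment, averaged 24.9 to 436 CPM in basal cluster 0 cells, against 901 to 8049 CPM in other cells of the first batch, and 206 to 663 TPM, against 239.7 to 6260 TPM, in the second, and was lower in all 10 sets. Still, 64 of 131 basal cluster 0 cells had a Krt79 read (48.9%), against 231 of 549 (42.1%). Cst6, a cysteine protease inhibitor, likewise was lower in all 10 sets (-4.83) but had a read in 56 cells (42.7%), against 255 (46.4%). Set against the other IFE-B cells alone, in 8 sets, the Cst6 difference was 1.07. Outer bulge genes (9 of 9 negative, median -1.68) and sebaceous gland genes (8 of 8 negative, median -1.17) were low on average too. At least 3 genes of the list were read in 76.3% of basal cluster 0 cells, against 52.1% of other cells, for the upper follicle and duct, in 52.7%, against 40.3%, for the outer bulge, and in 22.9%, against 17.3%, for the sebaceous gland. Gata6 itself had a read in 34 cells (26.0%), against 53 other cells (9.65%), and its mean was higher in 6 of 10 sets. Lin+ cells, which are marked through Gata6, were 100 of the 131 and a smaller share of the other cells. The pooled Gata6 shares thus do not separate lineage from cluster.

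Other cell types left few reads. Of the 8 immune markers 6 have values in both batches, the others being Cd3e and Cd207. At least 1 marker had a read in 14 of 131 basal cluster 0 cells, against 34 of 549 other cells, and no cell of either kind had reads of 3. Their summed level was 0 to 0.32 CPM in the sets of the first batch, against 0.03 to 0.29 CPM in other cells, and 0 to 206 TPM in the second, against 0 to 231 TPM, where Lyz2 made up nearly all of the top value. Ptprc, the pan-leukocyte phosphatase, reached 0.0287 CPM in its highest set. Melanocyte, fibroblast and endothelial lists summed to at most 19.4, 6.77 and 1.03 in any set of basal cluster 0 cells, in that set's unit.

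**Figure D3:**
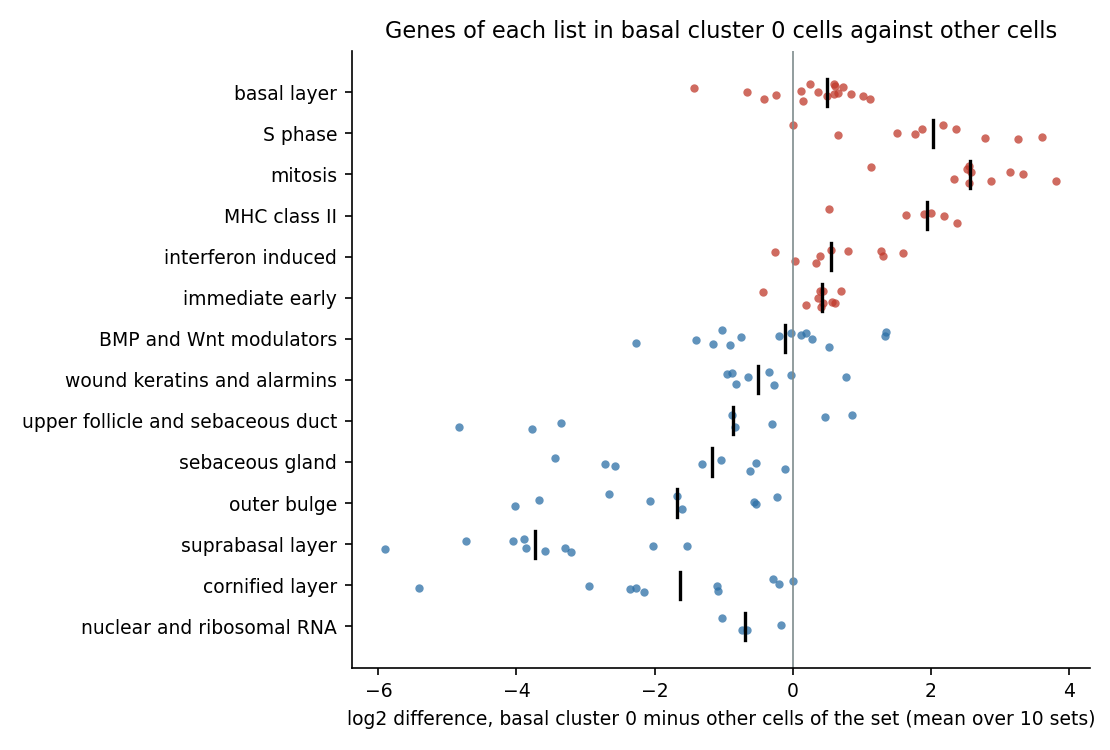
Log2 difference between basal cluster 0 cells and other cells for each gene of the lists, on the x axis, with lists down the page. Each point is 1 gene, averaged over the 10 sets, and the bar is the list median. S phase and mitosis genes lie right of 0 (medians 2.03 and 2.57), and suprabasal genes left of it (median -3.73).

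Over all 8781 genes with a mean of at least 10 CPM or TPM, 35 were higher and 84 lower in the basal cluster 0 cells of each of the 10 sets. Among the genes higher in all 10 sets, the one farthest up with a mean of at least 50 was Dtymk, the thymidylate kinase of DNA synthesis, at 2.93 (SD 2.2), with a read in 84 of 131 cells (64.1%), against 137 of 549 (25.0%). Tubg1, the gamma-tubulin that nucleates microtubules, stood at 2.71, and Srm, which makes spermidine, at 1.36. Vsnl1, a calcium sensor, had a read in 83 cells (63.4%), against 88 other cells (16.0%). Fst, a secreted antagonist of activin, had a read in 104 cells (79.4%), against 152 (27.7%). Fst averaged 568 to 1729 CPM in the basal cluster 0 cells of the first batch, against 80.4 to 562 CPM, and 264 to 608 TPM in the second, against 67.7 to 295 TPM. Lgals9, a galectin, had a read in 84 cells (64.1%), against 89 (16.2%), and Bhlhe40, a circadian and hypoxia-responsive repressor, in 70 (53.4%), against 165 (30.1%). Farthest down among the genes lower in all 10 sets, Ly6g6c stood at -6.25, Sprr1a, a precursor of the cornified envelope, at -5.41, and Klk7, a protease that sheds corneocytes, at -5.44, but against the other IFE-B cells alone Klk7 stood at 0.04. Shisa2 was at most 0.188 in any of the 10 sets, against 1.85 to 183 in other cells, in the unit of each set.

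Many basal cluster 0 cells expressed cell cycle genes. Reads of at least 3 of 10 S phase genes were present in 80 of 131 cells (61.1%, exact 95% interval 52.2 to 69.5), against 116 of 549 other cells (21.1%, 17.8 to 24.8). Reads of at least 3 of 10 mitosis genes were present in 52 cells (39.7%, 31.3 to 48.6), against 68 (12.4%, 9.7 to 15.4). After thinning each cell to 1000000 reads, the S phase shares were 60.3% and 19.2% and the mitosis shares 37.2% and 11.2%. These shares pool sets that differ in lineage and day. Within the sets used, the S phase share was larger in basal cluster 0 cells of every set. The mitosis share was larger except in lin+ day 0 replicate 1 (0 of 8, against 1 of 39) and lin- day 9 replicate 1 (3 of 7, against 9 of 20). In the smaller lin- day 9 replicate 2 set, S phase stood at 2 of 4, against 20 of 40. All 10 genes of each list were positive on average, but not equally steady over sets. Ccnb2, the cyclin B2 of mitosis, and Mcm5, a subunit of the replicative helicase, were each higher in 9 of 10 sets. Plk1 of the mitosis list was higher in 5 of 10. Mcm7 of the S phase list stood at 0.0099, higher in 4 sets and lower in 6. Mki67, the proliferation marker, had a read in 54 cells (41.2%), against 80 (14.6%). The study clustered the cells on expression, so these shares are not independent of the cluster.

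The mitosis share differed between sets more than the S phase share. At least 3 S phase genes were seen in 5 of 8 lin+ cells of day 0 replicate 1 and 6 of 12 of replicate 2, and 3 or more mitosis genes in 0 of 8 and 6 of 12. By day, mitosis genes were present in 6 of 23 cells at day 0 (26.1%), 8 of 25 at day 6 (32.0%), 20 of 40 at day 9 (50.0%) and 18 of 43 at day 11 (41.9%). The batches differed, with 13 of 50 cells in the first (26.0%) and 39 of 81 in the second (48.1%). Within the first the counts were 0 of 11 at day 0, 9 of 20 at day 9 and 4 of 19 at day 11, and within the second 6 of 12 at day 0, 8 of 25 at day 6, 11 of 20 at day 9 and 14 of 24 at day 11. S phase genes were present in 12 of 23 (52.2%), 14 of 25 (56.0%), 26 of 40 (65.0%) and 28 of 43 (65.1%). In wounds, 35 of 80 lin+ cells (43.8%) and 11 of 28 lin- cells (39.3%) had 3 mitosis genes. The intervals of the pooled days and of the lineages overlap, but they treat cells as independent and leave out differences between mice. Their overlap is no test of days or lineages.

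MHC class II genes, which load peptides for presentation to T cells, marked a minority of the cells. At least 3 of 6 such genes were read in 24 of 131 basal cluster 0 cells (18.3%, 12.1 to 26.0), against 21 of 549 other cells (3.8%, 2.4 to 5.8), and thinning gave 18.2% and 3.7%. The share was 1 of 23 at day 0 (4.3%), 12 of 25 at day 6 (48.0%), 4 of 40 at day 9 (10.0%) and 7 of 43 at day 11 (16.3%). Within the second batch, which holds day 6, it was 1 of 12 at day 0, 12 of 25 at day 6, 3 of 20 at day 9 and 3 of 24 at day 11. At day 6 it was 9 of 17 lin+ and 3 of 8 lin- cells, and the other cells of day 6 had 9 of 76 and 3 of 84. Cd74, the invariant chain, averaged 4150 TPM in lin+ and 992 TPM in lin- cells of day 6, and 368 to 751 TPM in the other second-batch sets. In the first batch Cd74 averaged 0 CPM in lin+ day 0, 140.4 in lin+ day 9, 0 in lin- day 9, 696 in lin+ day 11 and 88.0 CPM in lin- day 11 cells. H2-Ab1, a beta chain, followed the same order in the second batch, with 1431 and 508 TPM at day 6. The study took day 6 as 2 replicates of several mice, but the labels do not say which cell belongs to which, so the day 6 cells were pooled and their difference from other days could not be compared with replicate error.

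**Figure D4:**
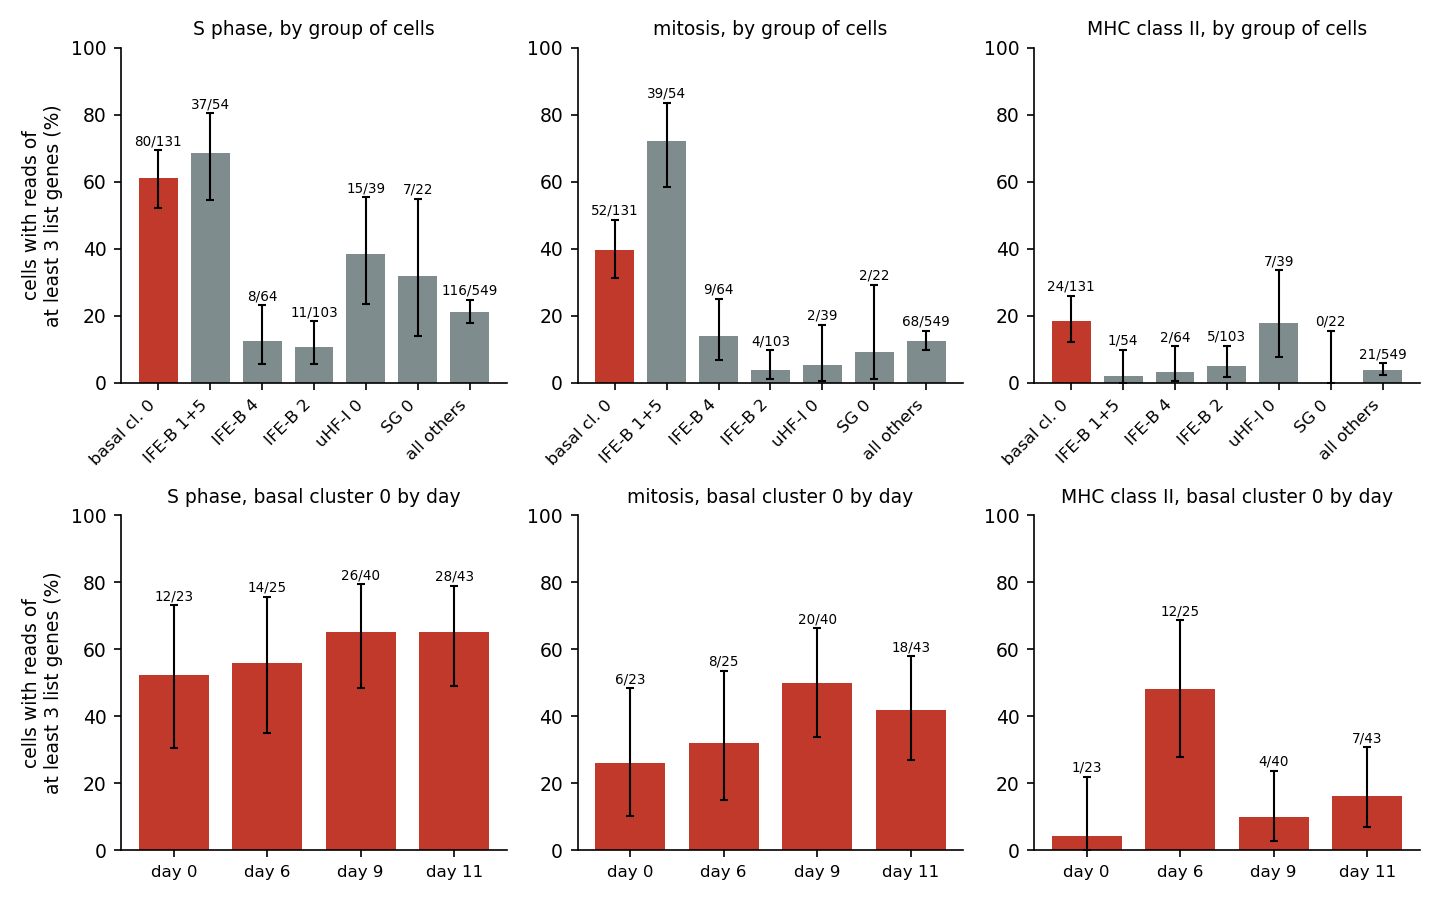
Percentage of cells with reads of at least 3 genes of a list, on the y axis, for basal cluster 0 cells, the compared clusters and all other cells (top) and for basal cluster 0 cells by day (bottom). Bars on the columns are exact binomial 95% intervals, which cover counting error only. S phase genes were present in 61.1% of basal cluster 0 cells and 21.1% of other cells, mitosis genes in 39.7% and 12.4%, and MHC class II genes in 18.3% and 3.8%.

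The groups compared were the IFE-B cells of cluster 2, of cluster 4 and of clusters 1 and 5 together, and the uHF-I and SG cells that share cluster 0. S phase genes were present in 37 of 54 IFE-B cells of clusters 1 and 5 (68.5%), 8 of 64 of cluster 4 (12.5%), 11 of 103 of cluster 2 (10.7%), 15 of 39 uHF-I cells of cluster 0 (38.5%) and 7 of 22 SG cells of cluster 0 (31.8%). MHC class II genes were present in 7 of 39 uHF-I cells of cluster 0 (17.9%), next to 18.3% in basal cluster 0 cells, but in 1 of 54 cells of clusters 1 and 5 (1.9%) and 2 of 64 of cluster 4 (3.1%). Mitosis genes were present in 39 of 54 cells of clusters 1 and 5 (72.2%), above the 39.7% of basal cluster 0 cells. They were present in 9 of 64 cells of cluster 4 (14.1%) and 4 of 103 of cluster 2 (3.88%). In cluster 0 they were present in 2 of 39 uHF-I cells (5.13%) and 2 of 22 SG cells (9.09%). None of these contrasts was tested, since the cells were clustered on expression.

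Some genes were at like levels in basal cluster 0 cells and in the uHF-I cells of cluster 0. In the second batch Sostdc1 averaged 3709 TPM in basal cluster 0 cells, against 3339 in uHF-I cluster 0, 1543 in IFE-B cluster 2, 477 in IFE-B cluster 4 and 229 TPM in IFE-B clusters 1 and 5. Fst had a read in 73% of basal cluster 0 cells of that batch, against 74% in uHF-I cluster 0, 21% in IFE-B cluster 4 and 0 of the SG cells of cluster 0. Sox9, a transcription factor of follicle progenitors, had a read in 98% of basal cluster 0 cells of the second batch, against 100% in uHF-I cluster 0 and 38% in IFE-B cluster 4. Other genes differed between basal cluster 0 and uHF-I cluster 0 cells, and at least 3 mitosis genes were read in 39.7% and 5.13% of them. Krt79 averaged 507 TPM in basal cluster 0 cells, against 1223 TPM in uHF-I cluster 0 and 40.6 TPM in IFE-B cluster 4. Krt14 was higher in IFE-B cluster 4 (12237 TPM) than in basal cluster 0 cells (5983 TPM).

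Other genes set each of these groups apart. Igfbp3, which binds insulin-like growth factors, averaged 3.06 TPM in basal cluster 0 cells of the second batch, against 868 TPM in IFE-B cluster 4, and Serpinb2, the plasminogen activator inhibitor of wounds, 156 TPM, against 12694 TPM. Aldh3a1, an aldehyde dehydrogenase, averaged 615 TPM, against 0.01 TPM in IFE-B clusters 1 and 5, but in the first batch 1133 CPM, against 883 CPM, so this difference was seen in 1 batch. Lhx2, a factor of the follicle bulge and germ, had a read in 2% of basal cluster 0 cells of the first batch, against 40% of IFE-B clusters 1 and 5, and in 8.64% of those of the second, against 64.7%. Soat1, which esterifies cholesterol, averaged 0.02 TPM, against 519 TPM in SG cluster 0. IFE-B cluster 2 held few genes per cell (medians 1455 and 1187.5 in the 2 batches, against 2796 and 3305 in basal cluster 0 cells) and more of the ribosomal precursor Rn45s, with 200.7 TPM in basal cluster 0 cells, against 4145 TPM in cluster 2.

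Late wounds (days 9 and 11) were compared with day 0 within the basal cluster 0 cells, to ask what differed between wounded and unwounded skin in cells of the same cluster. Both day 0 sets compared were lin+, since the lin- sets of day 0 held 3 and 0 basal cluster 0 cells. Unwounded lin- cells thus have no set here. In sections of unwounded skin the paper detected no basal lin+ cells. It states that day 0 lin+ cells with high Itga6 may have been contaminating lin- cells. Whether this holds for the day 0 cells used here was not tested. In a limma fit on the 10 sets, 24 of 9280 genes rose (0.259%) and 1 fell (0.0108%), or 25 together (0.269%), at an adjusted p below 0.05, and 1264 (13.6%) had an unadjusted p below 0.05. The median over all genes was 0.65 on the log2 scale, so values are to be read against that shift. Genes entered the fit with a mean of at least 10 in at least 2 sets. A gene near 0 at day 0 could thus enter through the wound sets, while one high only at day 0 needed both day 0 sets. Without that filter 4 of 16997 genes rose and 7 fell, with a median of 0.154, so the excess of rises depends on it. The gene that fell in the main fit was Malat1, an abundant nuclear noncoding RNA. It averaged 1446, 1985, 1105 and 1012 CPM in the late sets of the first batch (lin+ and lin- day 9, lin+ and lin- day 11), against 10890 CPM at day 0, and 6780 and 4139 TPM in the late sets of the second (lin+ day 9 and day 11), against 18344 TPM at day 0. Malat1 fell by 2.42 on the log2 scale (SE 0.35, adjusted p 0.0283) and the late and day 0 sets did not overlap within either batch. The other cells of the same sets held 1197 to 1741 CPM of Malat1 late, against 9850 CPM at day 0, and 5582 and 7403 TPM, against 27065 TPM.

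The named genes that rose averaged at most 13.2 CPM or TPM in either day 0 set. Psph, the last enzyme of serine synthesis, averaged 246, 213, 255 and 39.7 CPM in the late sets of the first batch, against 0.063 CPM at day 0, and 229 and 293 TPM in the second, against 0.618 TPM (fitted log2 difference 7.48, SE 0.79, adjusted p 0.0243). It had a read in 48 of 83 late cells (57.8%), against 3 of 23 day 0 cells (13.0%), and in 13 of 25 day 6 cells (52.0%). The fitted values of such genes depend on the constant of 1 added before the log. Psph stood at 4.56 with a constant of 10. Krtdap, a gene of keratinocyte differentiation, averaged 273, 477, 35.4 and 561 CPM and 1769 and 1920 TPM late, against 0.0762 CPM and 13.2 TPM at day 0, with a read in 30 of 83 late cells (36.1%), against 2 of 23 (8.7%). Krtdap was the only gene of the suprabasal list to pass, and it was still lower than in the other cells in 8 of 10 sets.

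The other genes named here that rose had adjusted p between 0.0283 and 0.0296. Phlda1 had a read in 39 of 83 late cells (47.0%), against 3 of 23 day 0 cells (13.0%), and Syngr2, a vesicle protein, in 27 (32.5%), against 3 (13.0%). Igfbp2, another binder of insulin-like growth factors, had one in 15 (18.1%), against 1 (4.3%). Tst, Ifrd2, Actr1b and Dus1l had a read in 28, 34, 30 and 21 of the 83 late cells, against 0 of 23 at day 0, which allows a share of up to 13.0% if set at 3 cells. Late cells also carried more genes, with medians of 3215 per cell, against 2480 at day 0 (2910 and 2217 at 1000000 reads). The part of that difference in these calls was not tested.

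**Figure D5:**
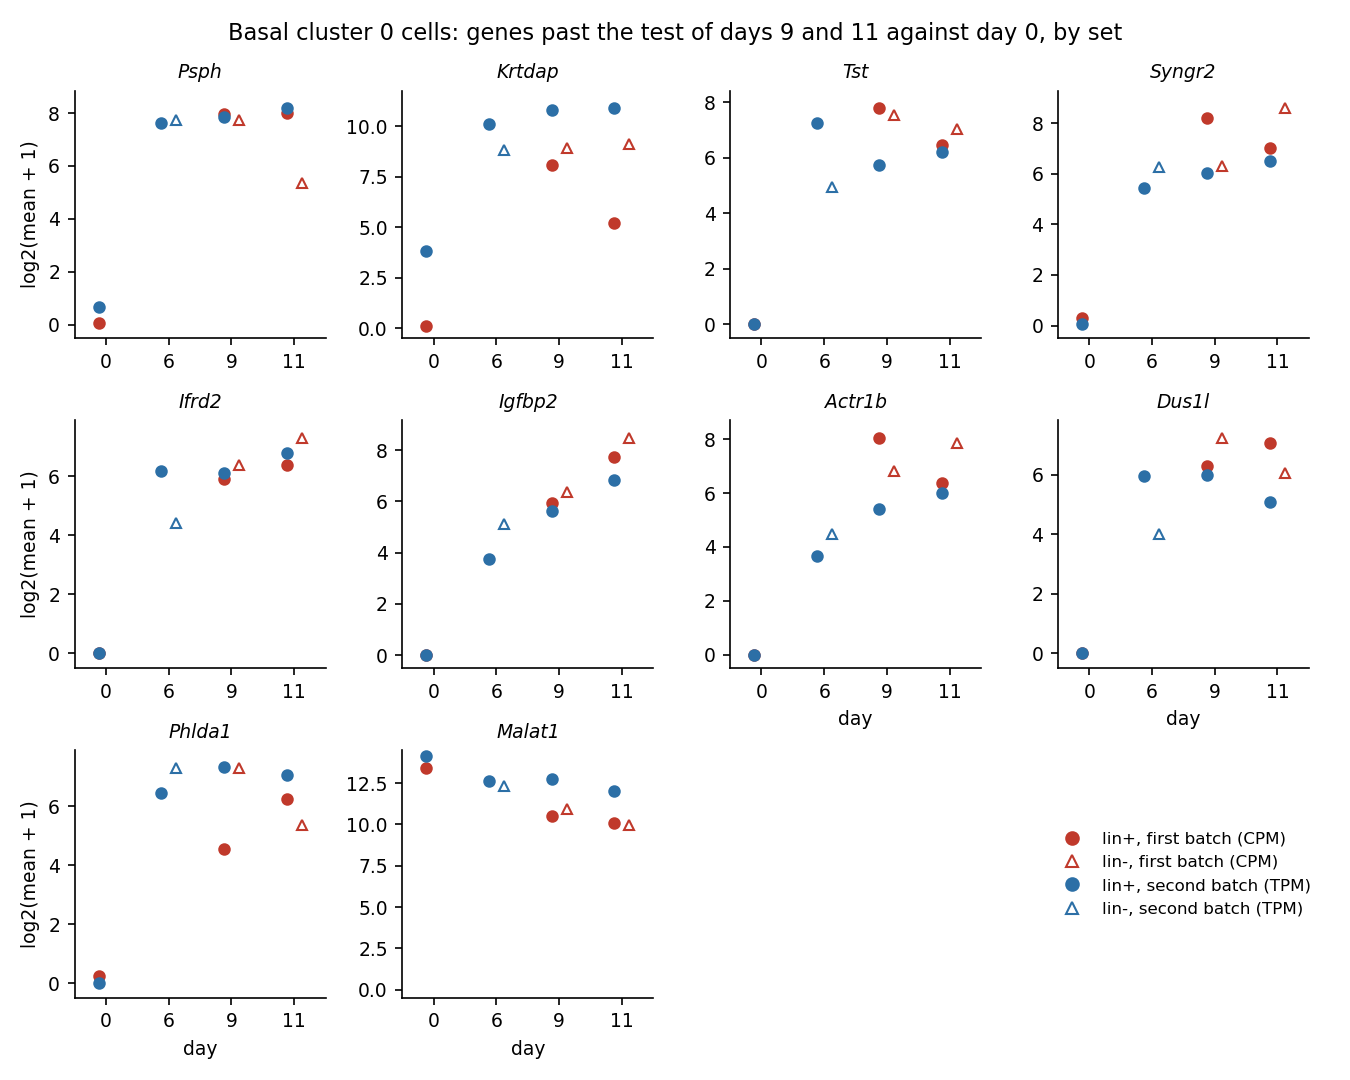
Mean level of genes named in the comparison of late wounds with day 0, by day on the x axis, on a log2(value + 1) y axis, in basal cluster 0 cells. Each point is 1 set, with lin+ left of lin-, and the first batch is in CPM and the second in TPM. Malat1 is highest in the day 0 sets, at 10890 CPM and 18344 TPM, and Psph lies at 0.063 CPM and 0.618 TPM there.

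The count of 25 depended on single mouse sets. Leaving out replicate 1 of day 0 gave 2 calls, and leaving out replicate 2 of day 0 gave 732. Either fit leaves 1 day 0 set, which is assumed to vary like the other groups. With replicate 1 of day 11 left out there were 2 calls, and with day 6, either replicate of day 9 or replicate 2 of day 11 left out there were 0. An edgeR fit on summed reads called 0 genes, with 666 at an unadjusted p below 0.05, and neither batch alone gave a call. A batch alone also holds a single day 0 set, of 8 or 12 cells.

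By list, 9 of 10 mitosis genes were positive with a median of 3.0, against 0.65 over all genes, and 4 (Ccnb1, Ccnb2, Cenpa and Birc5) had an unadjusted p below 0.05, with none adjusted. The background at that unadjusted threshold was 11.4% higher and 2.26% lower. Cenpa, the centromeric histone, differed by 7.78 in the first batch and 0.86 in the second. S phase genes had a median of 0.26, with 1 higher (Mcm7) and 1 lower (Mcm6). All 4 nuclear and ribosomal RNAs were negative (median -1.73) and had an unadjusted p below 0.05, among them Neat1 at -2.91 and Rn45s at -0.95. Of the 17 basal genes none passed the adjusted threshold. Krt14 stood at 1.12 (SE 0.20, adjusted p 0.0597), with day 0 below each late set in both batches, while Krt15 stood at -1.23 (SE 0.43, adjusted p 0.291) and Col17a1, the hemidesmosomal collagen, at -1.47. Krt5 (-0.24), Sostdc1 (-0.09) and Ifitm3 (0.00) lay near 0. The wound keratins and alarmins were positive in 7 of 7 (median 1.29), with Krt6a at 2.18 and Krt17 at 1.29. Krt17 differed by 2.86 in the first batch and by -0.20 in the second. MHC class II genes had a median of 3.91, yet Cd74 stood at 3.63 over both batches and at -0.69 in the second alone.

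Lin+ and lin- basal cluster 0 cells were compared within the 3 mouse sets that held at least 5 of each (day 6, day 9 replicate 1 and day 11 replicate 1), to ask whether the progeny of Gata6 cells differed from their neighbours within the cluster. No gene passed: limma called 0 of 7880 genes (0%), with 385 (4.89%) at an unadjusted p below 0.05, and edgeR called 0, with 140. On simulated sets the limma fit found 18% of planted 64-fold changes. These were rises and falls in turn, with values cut at 0, so low genes could not fall by the full amount. The 18% is therefore not a rate for real changes of that size. With 3 mouse sets, the absence of calls does not show that the lineages are alike. The values of 2 lists are given as description only. Of the MHC class II genes, 5 of 6 were higher at an unadjusted p below 0.05, beside 3.45% of all genes, and the list median was 4.16, against 0.20 over all genes. H2-Aa, an alpha chain, averaged 98.7 CPM in lin+ and 0 CPM in lin- cells of day 9, 249 CPM and 0 CPM at day 11, and 683 TPM and 155 TPM at day 6 (adjusted p 0.831). H2-Aa had a read in 20 of 80 lin+ wound cells (25.0%) and 3 of 28 lin- wound cells (10.7%). H2-DMa, which helps peptides bind, had a read in 11 of 80 lin+ and 0 of 28 lin- wound cells, and 0 of 28 allows a share of up to 10.7% if set at 3 cells.

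Of the upper follicle and sebaceous duct genes, 4 of 8 were higher in lin+ cells at an unadjusted p below 0.05, beside 3.45% of all genes, with none adjusted. Defb6, an antimicrobial defensin of that compartment, averaged 212 CPM in lin+ and 27.4 CPM in lin- cells of day 9, 90.0 and 5.48 CPM at day 11, and 2471 TPM and 404 TPM at day 6 (log2 difference 3.11, SE 0.43, adjusted p 0.831). Cst6 averaged 239 and 51.9 CPM, 54.2 and 0.177 CPM, and 1822 and 35.1 TPM in the same order. Krt79 stood at 1.69 and Lrig1, a regulator of receptor tyrosine kinases, at 1.45. With sets of at least 3 cells admitted, Krt79 stood at -0.50. Gata6 averaged 11.6 CPM in lin+ and 0 CPM in lin- cells of day 9, 36.7 CPM and 0 CPM at day 11, and 18.7 TPM and 26.3 TPM at day 6 (log2 difference 2.80, SE 1.55, adjusted p 0.835). Among basal genes, 5 were positive and 12 negative, with Krt14 at -0.46 and Krt5 at -0.22, and 1 of 17, Plec at -0.72, was lower at an unadjusted p below 0.05, beside 1.43% of all genes. Mitosis genes had a median of -0.17. At the ends by size, Nrtn, a neurotrophic ligand, and Il34, a ligand of the CSF1 receptor, stood at 6.74 and 5.40, and Calcoco1, a coactivator, and Bach1, a haem-responsive repressor, at -5.82 and -5.33, all with an adjusted p of 0.831.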

How the data were processed

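Single cells were sequenced by Smart-seq2. Per the labels, the authors trimmed reads with Trimmomatic (0.27), aligned them with STAR (2.2) to GRCm38 (mm10), assigned them to genes by featureCounts and clustered the cells with Seurat (3.2.2). The deposited values of the first batch (222 cells, replicate 1) are read counts that the authors left unnormalised, and were divided by the cell's total to give CPM. The deposited values of the second batch (462 cells, replicate 2 and day 6) are RPKM, a step of the authors that was found from the values and is not named in their methods, and were rescaled to 1000000 per cell. Reads of that batch were recovered from RPKM with the lengths of 17619 genes, and of the values below 200 reads a mean of 99.97% per cell came out whole (tolerance 0.02), with 99.70% as the lowest. Of 753 samples the 684 annotated cells were used, and 1048 per-sample columns of other samples and tables were not used. After merging 316 symbols, 19611 of 25001 genes had values in both batches. Cells of basal cluster 0 held 922834 to 7599380 reads in the first batch and 30683 to 4672730 in the second, and other cells with at least 200 genes held 81312 to 8228170 and 519 to 5667070.

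Values were averaged over the cells of a set, scaled to each other inside each batch (median of ratios, factors 0.944 to 1.10) and taken as log2(value + 1), and fold changes are on that scale, which understates the change of low genes. Sets needed at least 5 basal cluster 0 cells, and genes a mean of at least 10 in at least 2 sets. Late wounds and day 0 were compared with limma (3.58.1, R 4.3.3) with a trend, lineage and batch as covariates, a coefficient of its own for day 6 and the mouse set as a block (correlation 0.111). Lineages were compared with the mouse set as a fixed block, because both were sorted from the skin of the same mouse or mice. Deviations of such pairs correlated at -0.223, -0.0684 and 0.00393. p-values were adjusted by Benjamini-Hochberg over all genes, with a threshold of 0.05. By the study's methods a replicate was 1 mouse at days 9 and 11 and several mice at day 6, although the labels do not name mice, and every set has equal weight whatever its number of cells. Alternatives were edgeR (4.0.16) on summed reads, other constants, filters, scalings and cell minimums, no block, each batch alone and each mouse set left out. The fits were tested on simulated sets with known changes. The late wound fit found 0% of 4-fold and 18% of 64-fold changes, with 0 false calls among 20. The lineage fit also found 0% and 18%, with 0 false calls among 15. Either fit could thus miss most changes of that size, so a gene without a call may still differ. Other steps used Python 3.11.15, numpy 2.4.6, pandas 2.3.3 and scipy 1.17.1. Intervals on shares, other than the limits of 3 cells, are exact binomial at 95%.

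The members and gene lists were chosen with earlier results of these data known. Genes named are those of the lists, of which examples are given, up to 10 at each end of the fold changes that passed with a mean of at least 20 and 1 direction in both batches, or in every mouse set for lineages (at an unadjusted p where none passed), and up to 15 above and 10 below the other cells in every set with a mean of at least 50. A few genes that meet this rule are not reported here. Columns of clusters and identities come from the deposited annotation, and day 6, for which the methods give 2 replicates and the labels name none, was pooled as 1 mouse set. A share of 0 is also set against 3 cells of the total. By the study's methods the day 0 skin came from mice also used for later days, and which mice is not given in the labels, so these sets were fitted as separate.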

Additional observations from a re-analysis of the deposited data

Results flagged for a closer look

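In each of 30 genes given against other cells, the log2 difference of 1 set was compared with those of the other 9 of its 10 sets. In 4 genes a single set lay apart from the rest by more than the limit used for 10 values. Chance alone would mark about 1 in 20 such groups if the genes were unselected. Most of the 30 were chosen from these values for 1 direction in all 10 sets and a large mean difference, so that rate need not hold here. Fgfbp1, which releases FGFs from the matrix, stood at -8.82 in lin+ day 0 replicate 1, where the next lowest set stood at -0.38. Hspa14, a cofactor of the Hsp70 chaperone, stood at 4.66 in lin+ day 0 replicate 2, with 172 TPM in basal cluster 0 cells and 5.83 TPM in other cells, and the next set stood at 2.28. Tex30 stood at 4.32 in lin+ day 0 replicate 1, with 19.0 CPM in basal cluster 0 cells and 0 CPM in other cells, and the next set stood at 2.08. Ly6e, a membrane protein induced by interferon, stood at 4.47 in lin- day 11 replicate 1, with 394 CPM in basal cluster 0 cells and 16.8 CPM in other cells, and the next set stood at 1.31. Of these sets, lin- day 11 replicate 1 holds 6 basal cluster 0 cells and lin+ day 0 replicate 1 holds 8, so each mean rests on few cells.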

How the results depend on the processing

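The count of genes that differed between late wounds and day 0 (25) was 0 with log2(value + 10), 11 with no filter on low values (4 of the 25 shared), 170 with sets of at least 3 cells (17 shared), and 0 with sets of at least 10 cells, with edgeR on summed reads (666 at an unadjusted p below 0.05), and in either batch by itself (1250 in the first and 1653 in the second). It ranged from 0 to 732 when a mouse set was left out. Without the replicate block it was 30, and with no scaling between sets 30 (all 25 shared in both). With the mean over cells of log2 values it was 36, of which 4 were shared. The 11 calls with no filter were 4 higher and 7 lower, against 24 higher and 1 lower in the main fit. The count for lin+ against lin- cells was 0 under every setting run, with 140 to 743 at an unadjusted p below 0.05. Without the replicate block that fit is the same, since day marks the mouse set, with 385 at an unadjusted p below 0.05. Sets of at least 10 cells left no pair of sets, and the second batch alone holds 1 pair. The sign turned for Cd74 in late wounds (3.63), at -0.67 with sets of at least 10 cells, -0.16 with the mean of log2 values and -0.69 in the second batch alone, with -0.69 to 7.73 when a mouse set was left out. In lin+ against lin- cells Krt79 stood at -0.50 with sets of at least 3 cells, and Sostdc1 at 0.30 there and at 0.42 with the mean of log2 values. Against other cells, Fgfbp1 (-0.32) stood at 0.0023 with log2(value + 10), 2.90 with the mean of log2 values, 0.71 with sets of at least 10 cells, and -0.60 to 0.62 when a mouse set was left out. With the other IFE-B cells as reference, Klk7 stood at 0.039, Psapl1 at 0.10 and Cst6 at 1.07. Over all alternatives Krt5 ranged from 0.054 to 4.11 and Krt14 from 0.031 to 2.45. The median of the 6 markers (0.59) was 3.5 with the mean of log2 values, and the share of basal cluster 0 cells was 35.1% of IFE-B cells. The cause was not tested in any of these. For single genes against other cells, 383 values kept their sign and stayed within 1 SD over sets, and 30 moved by more. For single genes in late wounds, 140 values lost their call and 139 kept their side of the threshold. The alternatives of thinning, of at least 1500 genes per cell, of a CPM of at least 10 for list shares and of keeping the 4 cells with under 200 genes were chosen after seeing the data. The main limits are the 2 day 0 sets, both lin+ and with 8 and 12 cells, the confounding of unit and batch, and the day 6 cells, whose labels name no replicate. Fits without a day 0 set, and those of either batch, rest on 1 day 0 set and assume that it varies like the other groups.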

Other observations

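Further lists describe the basal cluster 0 cells beside the other cells of their sets. Of the interferon-induced genes with values, 8 of 9 were positive (median 0.56, against -0.14 over all genes). Ly6e was higher in all 10 sets and had a read in 114 of 131 cells (87.0%), against 240 of 549 (43.7%), and Ifitm2 had a read in all 131 cells, against 429 (78.1%). Irf1, a transcription factor of interferon responses, had a read in 43 cells (32.8%), against 75 (13.7%). The immediate early genes, which respond within minutes to stress and growth factors, were positive in 9 of 10 (median 0.43). Jun was higher in all 10 sets, by 0.61 (SD 0.42), and Fosb was negative at -0.43. The same 10 genes had a median of -0.26 in late wounds against day 0, below the shift of 0.65 over all genes, with Dusp1, a phosphatase of MAP kinases, at -1.57 (adjusted p 0.203 in limma).

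Genes of growth factor signals were divided. Of 14 BMP and Wnt modulators 6 were positive and 8 negative against other cells (median -0.11). Wnt10a, a Wnt ligand, had a read in 59 of 131 cells (45.0%), against 77 of 549 (14.0%), and Axin2, a target of Wnt signalling, in 36 (27.5%), against 75 (13.7%). Id2, a target of BMP signalling, stood at -2.27 and was lower in 9 of 10 sets, although its share of cells with a read was 37.4%, against 36.1%. Lef1, a partner of beta-catenin, had a read in 1 of 131 cells, against 29 of 549. Of 14 FGF and EGF genes 7 were positive and 7 negative. Fgfr2, the receptor of keratinocyte growth factor, had a read in 52 cells (39.7%), against 159 (29.0%), Hbegf, a ligand of the EGF receptor, in 53 (40.5%), against 133 (24.2%), and Tgfa, another such ligand, in 2 (1.53%), against 21 (3.83%). In late wounds against day 0, Hbegf had a read in 39 of 83 cells (47.0%), against 4 of 23 (17.4%), with a log2 difference of 1.62 (SE 0.66, adjusted p 0.337 in limma), and Dusp6, an inhibitor of ERK, in 42 (50.6%), against 6 (26.1%), with 4.49 (SE 1.53, adjusted p 0.287). Neither passed.

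Genes outside the rule for named genes also rose in late wounds, among them Eno1b, Suclg1, Zpr1, Ramp1, Zfyve21, Akr1b8, Nsun2, Mrpl10, Myg1, Bin3, Nit2, Dctn5 and Pgp. Eno1b, an enolase copy that may share reads with Eno1, had a log2 difference of 2.68 (SE 0.38, adjusted p 0.0283 in limma), at 3.47 in the first batch and 1.99 in the second. Its late and day 0 sets did not overlap within either batch.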
